A study of Mus musculus with 8 samples.

Results

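The Ly6 proteins and the proteins of the CD2/SLAM family sit on the surface of lymphocytes, and 9 of their genes were followed in pre-BII cells that lacked OBF-1, Aiolos or both. The genes were Ly6d, Ly6a, Ly6e, Ly6c1, Cd2, Cd48, Ly9, Cd84 and Slamf1. Their members on the array were all probe sets annotated to these genes, which gave 9 of the 22626 probe sets tested, for 7 of the 9 genes, on an array with 12393 distinct gene symbols. Ly6d and Cd2 were chosen by their measured intensities in these same genotypes, Ly6d for a fall without OBF-1 and Cd2 for a fall without Aiolos, so their values are given as a description with no test. Cd48, Ly9, Cd84, Ly6d and Cd2 each had 1 probe set of their own and Slamf1 had 3. The only probe set for Ly6c1 was shared with Ly6c2, whose transcripts it cannot tell apart from those of Ly6c1. Ly6a and Ly6e had no annotated probe set and were not analysed here.

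RNA levels were measured on MOE430A arrays with 2 arrays for each of 4 genotypes. The groups were double-mutant mice with deletions of Aiolos and OBF-1, OBF-1 single-mutant mice, Aiolos single-mutant mice and WT control mice, all labelled as Bl6 and aged 7 weeks. The study's methods describe B220+ CD25+ pre-BII cells sorted from bone marrow, with independent pools of mice for the arrays, while the sample labels call every sample bone marrow, for the mutants from 1 mouse, and name neither sort nor pool. OBF-1, the product of Pou2af1, works as a coactivator of Oct factors on octamer sites, and Aiolos belongs to the Ikaros family of zinc finger proteins.

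Ly6 proteins are small surface proteins, most of them held in the membrane by a glycosylphosphatidylinositol (GPI) anchor. Ly6d marks lymphoid progenitors of the mouse that have turned towards the B lineage, and Ly6c is known from myeloid and T cell subsets. CD2 is an adhesion and signalling receptor whose ligand in the mouse is the GPI-anchored CD48. The SLAM receptors Ly9, Cd84 and Slamf1 bind copies of themselves on other cells and signal through adaptors such as SAP.

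Pou2af1 had 170 and 273 intensity units on the double-mutant arrays, 241 and 236 units in the OBF-1 single mutant, 2434 and 2842 units in the Aiolos single mutant and 2761 and 2678 units in WT. No probe set was annotated to Ikzf3, the Aiolos gene, so that deletion was not checked here. Arrays of 1 genotype correlated with r of 0.9961 to 0.9965, against 0.9878 to 0.9946 between genotypes. Of 11 measured pre-B markers, Il2ra (CD25), Ptprc (B220) and Cd79a, named after their values were seen, were at 396 units or more on every array. Of the same 11, 4 were higher and 3 were lower in the double mutant than in WT, against 8.57% of all probe sets called in either direction. Vpreb1, a gene of the surrogate light chain, had 3242 and 3478 units on the double-mutant arrays and 195 and 191 units in WT (log2 fold change 4.12), and Il7r, the IL-7 receptor chain, was higher by 0.88 on the log2 scale. Vpreb3 had 1759 and 1836 units on the double-mutant arrays and 5997 and 5822 units in WT (log2 fold change -1.72), and Cd79b, a chain of the B cell receptor, had a log2 fold change of -0.81. The summed intensity of the 11 was 25483 to 26424 units in the double mutant, 24712 to 25234 without OBF-1 alone, 28539 to 29232 without Aiolos alone and 28782 to 29450 in WT, and its part in the Ly6 and CD2/SLAM values was not tested. Fluidics station 1 washed the double-mutant and Aiolos single-mutant arrays, and station 2 those of the OBF-1 single mutant and WT. Loss of Aiolos and station therefore cannot be told apart in the double mutant against WT or against the OBF-1 single mutant. The same holds for the Aiolos single mutant against WT. On both stations, modules 1 and 2 took the arrays with OBF-1 and modules 3 and 4 those without it. Loss of OBF-1 and module therefore cannot be told apart in the double mutant against WT or against the Aiolos single mutant. The same holds for the OBF-1 single mutant against WT.

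Ly6d mRNA was 10.05-fold lower in the double mutant and 8.80-fold lower in the OBF-1 single mutant than in WT, and within 6% of WT in the Aiolos single mutant. Its intensity was 464 and 417 units on the double-mutant arrays, 481 and 523 units in the OBF-1 single mutant, 4080 and 4277 units in the Aiolos single mutant and 4359 and 4476 units in WT. All 4 arrays without OBF-1 lay below all 4 arrays with it. The means were 440 ± 33.3 units in the double mutant, 502 ± 29.6 units in the OBF-1 single mutant, 4178 ± 139 units in the Aiolos single mutant and 4417 ± 82.3 units in WT (SD, n = 2 each). The log2 fold change against WT was -3.33 in the double mutant, -3.14 without OBF-1 alone and -0.08 without Aiolos alone. In the order of levels, the neighbours double mutant and OBF-1 single mutant differed by a log2 fold change of -0.19, as small as 1.14-fold. Single arrays of neighbouring genotypes did not overlap, but both small differences stood far under the one between cells without and with OBF-1. In bulk RNA, fewer cells that express a gene and less RNA per cell cannot be told apart.

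Cd2 mRNA showed another pattern. The intensity of this receptor was 192 and 194 units on the double-mutant arrays, 597 and 592 units in the OBF-1 single mutant, 321 and 318 units in the Aiolos single mutant and 658 and 616 units in WT. The 4 genotypes did not overlap, with the double mutant lowest, the Aiolos single mutant next, and the OBF-1 single mutant just under WT. The means were 193 ± 0.838 units in the double mutant, 594 ± 3.83 units in the OBF-1 single mutant, 319 ± 1.68 units in the Aiolos single mutant and 637 ± 30.3 units in WT (SD, n = 2 each). The log2 fold change against WT was -1.72 in the double mutant, -0.10 without OBF-1 alone and -0.99 without Aiolos alone. Cd2 was thus 3.30-fold lower in the double mutant and 1.99-fold lower in the Aiolos single mutant than in WT. Between mutants, the log2 fold change was -0.73 for the double mutant against the Aiolos single mutant and -1.62 for the double mutant against the OBF-1 single mutant. The change in the double mutant was larger than the sum of both single-mutant changes by 0.63 on the log2 scale (interaction value -0.63, given with no test), whereas the same value for Ly6d was -0.11.

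**Figure D1:**
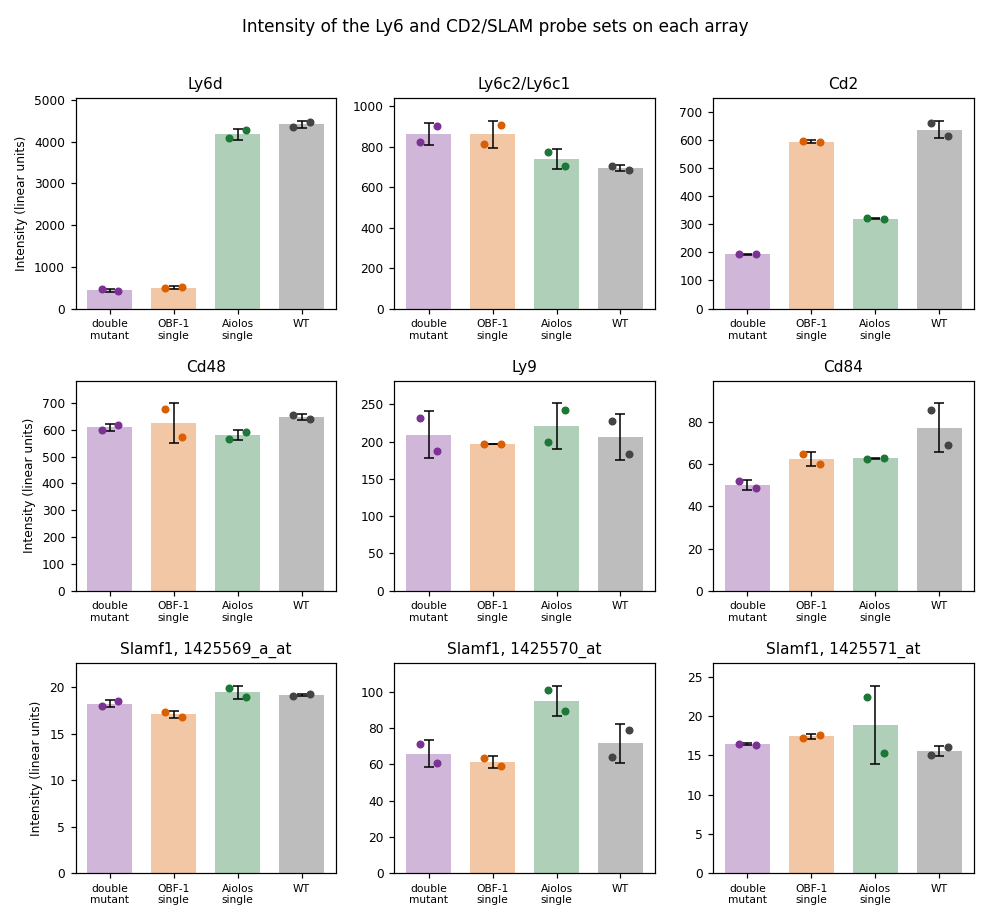
Intensity (linear units) of the 9 probe sets of the Ly6 and CD2/SLAM genes, in the double mutant, OBF-1 single mutant, Aiolos single mutant and WT from left to right. Points are single arrays, bars the mean and error lines the SD (n = 2 each). Ly6d lies at 417 to 523 units without OBF-1 and at 4080 to 4476 units with it, and Cd2 is at 192 to 194 units in the double mutant.

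In the double mutant against WT the other 7 member probe sets changed less than Ly6d and Cd2, which were picked for their falls. Among all comparisons of these 7 probe sets 2 calls were made. The 7 were tested with limma on log2 intensity. A change was called at a Benjamini-Hochberg adjusted p under 0.05 over all probe sets of a comparison. In the double mutant against WT 1 of the 7 was called, Cd84, which was lower, against 8.57% of all probe sets. In the OBF-1 single mutant against WT limma called 0 of 7, with 2 at an unadjusted p under 0.05, against 2.09% of all probe sets. In the Aiolos single mutant against WT limma likewise called 0 of 7, with 2 at an unadjusted p under 0.05, against 1.84% of all probe sets.

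Cd84 encodes a SLAM receptor that binds itself. Its intensity was 52.0 and 48.6 units on the double-mutant arrays, 64.9 and 60.1 units in the OBF-1 single mutant, 62.6 and 62.7 units in the Aiolos single mutant and 85.5 and 69.1 units in WT. Every double-mutant array was below every other array, and both single mutants lay below WT and overlapped each other. The log2 fold change against WT was -0.61 in the double mutant (standard error 0.11, limma adjusted p = 0.00454). Without OBF-1 alone it was -0.30 (adjusted p = 0.252) and without Aiolos alone -0.29 (adjusted p = 0.185), neither of which passed. The interaction value was -0.02, with a 95% interval of -0.36 to 0.32. These are low intensities, since the arrays' medians were 66.8 to 69.4 units, and without moderation of the variances the call in the double mutant was lost (adjusted p = 0.119).

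Slamf1, also called CD150, is the receptor that gave the SLAM family its name, and its 3 probe sets did not show the same values. The brightest of them had 71.1 and 60.8 units on the double-mutant arrays, 63.5 and 59.2 units in the OBF-1 single mutant, 101 and 89.3 units in the Aiolos single mutant and 64.2 and 79.2 units in WT. Both Aiolos single-mutant arrays lay above all others, with a log2 fold change of 0.41 against WT that did not pass (adjusted p = 0.111). The double mutant was below the Aiolos single mutant by a log2 fold change of -0.53 (standard error 0.12, limma adjusted p = 0.0404). This was the only 1 of the 7 probe sets called in that comparison, in which 2.95% of all probe sets were called. The call was lost when either OBF-1 single-mutant array (adjusted p = 0.0555 for each), either Aiolos single-mutant array (0.242 and 0.0958) or either double-mutant array (0.0534 and 0.269) was left out. Both dimmer Slamf1 probe sets were at 15.1 to 22.4 units over the 8 arrays and passed in no comparison.

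The shared Ly6c2/Ly6c1 probe set had 823 and 901 units on the double-mutant arrays, 813 and 907 units in the OBF-1 single mutant, 773 and 703 units in the Aiolos single mutant and 706 and 686 units in WT. All 4 arrays without OBF-1 were above all 4 arrays with it, the reverse order of Ly6d. The log2 fold changes against WT were 0.31 in the double mutant (95% interval 0.09 to 0.53, adjusted p = 0.0851) and 0.30 in the OBF-1 single mutant (95% interval 0.09 to 0.52, adjusted p = 0.187), and neither passed. In the double mutant the value passed with dim probe sets left out (adjusted p = 0.0476) and with trend and robust moderation (adjusted p = 0.0477). Because Ly6c is also a myeloid protein, the 10 granulocyte and monocyte markers are set beside it. Against WT, 7 of 10 were higher in the double mutant, where 8.57% of all probe sets were called. Without OBF-1 alone 4 of 10 were higher, against 2.09% of all probe sets. Without Aiolos alone limma called 0 of the 10 markers, with 5 at an unadjusted p under 0.05, against 1.84% of all probe sets. Their summed intensity was 27547 to 28049 units in the double mutant, 27218 to 30753 in the OBF-1 single mutant, 25229 to 26023 in the Aiolos single mutant and 22194 to 22320 in WT. Their part in the Ly6c value was not tested.

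Cd48 and Ly9 stayed close to WT. Cd48, the CD2 ligand, had 600 and 617 units on the double-mutant arrays, 677 and 572 units in the OBF-1 single mutant, 566 and 593 units in the Aiolos single mutant and 655 and 641 units in WT. Against WT, its double-mutant value was -0.09 on the log2 scale with a 95% interval of -0.31 to 0.13. Ly9, also known as CD229, had 232 and 187 units on the double-mutant arrays, 197 and 197 units in the OBF-1 single mutant, 199 and 242 units in the Aiolos single mutant and 228 and 184 units in WT. Its 95% interval in the double mutant against WT was -0.28 to 0.32. For Ly9 each mutant overlapped WT, and the double mutant overlapped each single mutant. For neither gene did any comparison pass.

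Between the double mutant and the OBF-1 single mutant limma called 0 of the 7 probe sets, with 1 at an unadjusted p under 0.05, against 2.63% of all probe sets. For the interaction of both deletions limma called 0 of 7, with 0 at an unadjusted p under 0.05, against 0.186% of all probe sets. The largest difference in size from the OBF-1 single mutant was that of Cd84, a log2 fold change of -0.31 (adjusted p = 0.191).

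**Figure D2:**
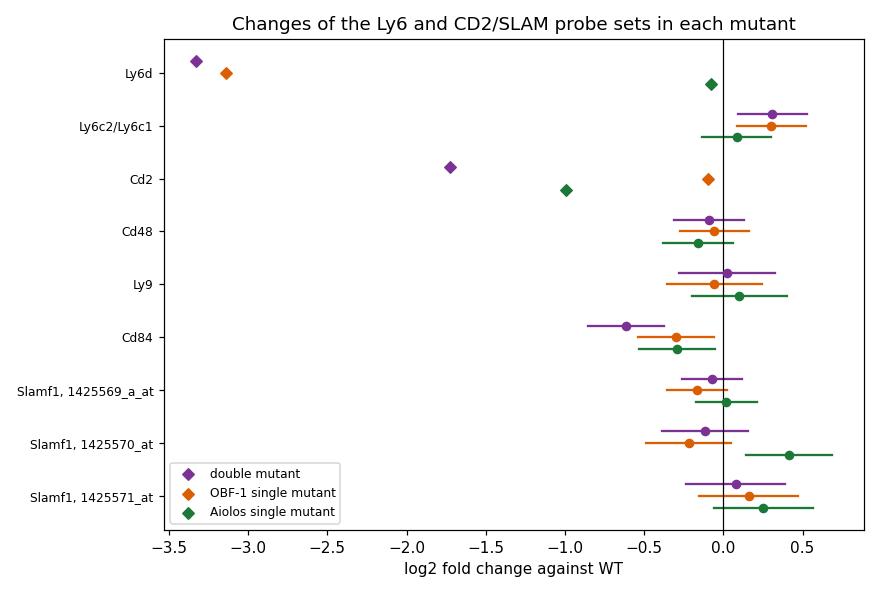
Log2 fold change against WT of the 9 probe sets in the double mutant, OBF-1 single mutant and Aiolos single mutant. Circles carry 95% intervals from limma, and diamonds mark Ly6d and Cd2, which were picked from these values and have no interval. Ly6d is at -3.33, -3.14 and -0.08 in these mutants and Cd2 at -1.72, -0.10 and -0.99, while the other probe sets lie between -0.61 and 0.41.

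Ly6d lies in the Ly6 cluster of chromosome 15, where 11 of 19 genes had a probe set, shared ones included. Several measured genes of the cluster stayed near WT: the shared Gml/Gml2 probe set had a log2 fold change of 0.02 in the double mutant, Ly6m of 0.11, Ly6i of 0.15 and Slurp1 of 0.01, and none passed in a mutant against WT. Lynx1, next to Ly6d in gene order and encoding a GPI-anchored modulator of nicotinic acetylcholine receptors, was the exception in size. Lynx1 had 240 and 218 units on the double-mutant arrays, 411 and 399 units in the OBF-1 single mutant, 581 and 556 units in the Aiolos single mutant and 652 and 588 units in WT. The genotypes did not overlap.

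Against WT, Lynx1 had a log2 fold change of -1.44 in the double mutant (standard error 0.10, limma adjusted p = 2.3e-06). Loss of OBF-1 alone gave Lynx1 a log2 fold change of -0.61 (adjusted p = 0.00598), a call lost without WT replicate 1 (adjusted p = 0.0779) or OBF-1 single-mutant replicate 2 (0.0608). Loss of Aiolos alone gave -0.12 (adjusted p = 0.513). Against the Aiolos single mutant, Lynx1 was lower in the double mutant by a log2 fold change of -1.31 (adjusted p = 9.79e-06). Against the OBF-1 single mutant the value was -0.83 (adjusted p = 0.000613). Its interaction value of -0.70 did not pass (adjusted p = 0.0938), though it did after a repeated quantile normalization (0.0383) and with trend and robust moderation (0.0415).

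Of 37 other genes of the Ly6 and urokinase receptor family, 18 had a probe set of their own. In the double mutant against WT 3 of the 18 were lower and 0 higher, against 8.57% of all probe sets called in either direction, with a median log2 fold change of -0.01 beside 0.01 over all probe sets. The 3 were Lynx1, Psca and Pinlyp. Psca, at the far end of the same cluster, had 60.2 and 54.0 units on the double-mutant arrays and 83.6 and 88.4 units in WT (log2 fold change -0.59, adjusted p = 0.0235). Pinlyp had 22.1 and 21.0 units on the double-mutant arrays and 27.7 and 26.8 units in WT (log2 fold change -0.34, adjusted p = 0.0331). These Pinlyp intensities are low, well under the arrays' medians of 66.8 to 69.4 units. Both calls were lost when any WT or double-mutant array was left out, with adjusted p of 0.0664 to 0.138 for Psca and 0.0833 to 0.152 for Pinlyp. Loss of OBF-1 alone lowered 1 of 18, Lynx1, against 2.09% of all probe sets called. Loss of Aiolos alone gave 0 of 18 by limma, with 6 at an unadjusted p under 0.05, against 1.84% of all probe sets. Since Ly6 proteins and CD48 need a GPI anchor, the genes that build it were followed as well: of 23 measured, 2 were called in the double mutant against WT, a share close to the 8.57% of all probe sets: 1 rose (Pigq, log2 fold change 0.37, adjusted p = 0.038) and 1 fell (Pigyl, log2 fold change -0.40, adjusted p = 0.0248). Both calls were lost without WT replicate 1 (adjusted p = 0.195 for Pigq and 0.0749 for Pigyl) or WT replicate 2 (0.091 and 0.145), and also without double-mutant replicate 1 for Pigq (0.224), double-mutant replicate 2 for Pigyl (0.143) and either Aiolos single-mutant array for Pigq (0.0547). Of these genes limma called 0 of 23 in either single mutant, with 2 (OBF-1) and 4 (Aiolos) at an unadjusted p under 0.05. Over all probe sets 2.09% (OBF-1) and 1.84% (Aiolos) were called.

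Among genes annotated as protein-coding, Cd244a, Ly9, Slamf7, Cd48, Slamf1, Cd84 and Slamf6 form a row on chromosome 1. Only Tma7-ps lies within this row, between Cd48 and Slamf1. Slamf9 and Slamf8 lie further along. These neighbours did not move together. In the double mutant against WT, Cd244a and Slamf7 rose, Cd84 fell, and Ly9, Cd48, Slamf1 and the brighter Slamf6 probe set were not called. Slamf6 itself was unclear: its brighter probe set had a log2 fold change of -0.06 (adjusted p = 0.798) and the dimmer one 0.76 (adjusted p = 0.0321).

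**Figure D3:**
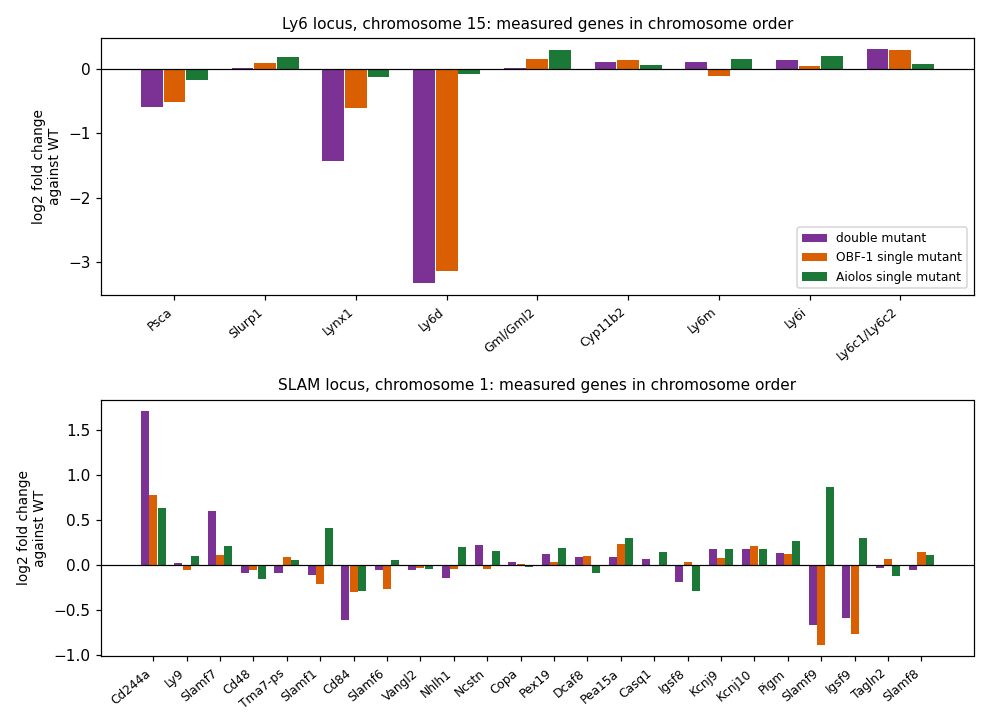
Log2 fold change against WT in the double mutant, OBF-1 single mutant and Aiolos single mutant (bars) for the genes with a probe set in the Ly6 cluster of chromosome 15 and in the SLAM region of chromosome 1, in chromosome order and not to scale along it. Names joined by a slash share a probe set. Ly6d and its neighbour Lynx1 stand out in the Ly6 cluster (-3.33 and -1.44 in the double mutant), whereas Cd244a (1.71) and Cd84 (-0.61) move in opposite directions in the SLAM region.

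The promoters of Cd84, Cd48 and Cd244a, which lie in 1 gene row yet fell, stayed near WT and rose, are shown because OBF-1 acts through the octamer ATGCAAAT and Ikaros family proteins bind the core TGGGAA. They come from RefSeq on GRCm38.p6 and run 5′ to 3′ on the plus strand over 300 bases, of which 250 precede the gene start: chr1:171839447-171839746 for Cd84, chr1:171681742-171682041 for Cd48 and chr1:171558943-171559242 for Cd244a. Capitals mark either motif on either strand, and the motifs do not overlap.
Cd84: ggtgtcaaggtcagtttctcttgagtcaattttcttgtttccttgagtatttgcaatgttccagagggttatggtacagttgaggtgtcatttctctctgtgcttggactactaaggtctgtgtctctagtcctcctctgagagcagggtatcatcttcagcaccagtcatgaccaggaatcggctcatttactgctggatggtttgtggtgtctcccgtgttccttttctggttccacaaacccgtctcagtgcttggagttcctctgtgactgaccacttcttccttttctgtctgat
Cd48: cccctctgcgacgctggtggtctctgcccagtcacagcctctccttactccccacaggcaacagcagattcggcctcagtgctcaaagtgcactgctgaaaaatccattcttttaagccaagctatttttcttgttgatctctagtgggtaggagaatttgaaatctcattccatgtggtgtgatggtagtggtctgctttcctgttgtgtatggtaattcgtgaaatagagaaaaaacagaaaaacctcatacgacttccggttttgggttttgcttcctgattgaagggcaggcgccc
Cd244a: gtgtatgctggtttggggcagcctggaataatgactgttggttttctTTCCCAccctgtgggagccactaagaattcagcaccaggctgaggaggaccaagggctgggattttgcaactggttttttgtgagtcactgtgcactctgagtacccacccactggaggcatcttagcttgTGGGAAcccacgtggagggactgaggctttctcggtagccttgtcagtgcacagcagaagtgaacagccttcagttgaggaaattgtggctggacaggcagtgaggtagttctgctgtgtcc

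In its exact letters the octamer was in none of these 3 windows. Octamer variants and sites further upstream were not searched. The Ikaros core occurred 2 times in Cd244a, starting 203 and 72 bases before the gene start, and not in those of Cd84 and Cd48. Of all 32851 mouse promoters of this length, 1.74% held the octamer and 25.6% held the core. The Slamf1 window held 1 core and the windows of Slamf6, Slamf7, Slamf9, Pstpip1 and Ly6c1 none of either. Promoters of Ly6d, Cd2, Ly9 and Lynx1 were not analysed here. A match of letters is a description and not a binding site.

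Among 18 measured of 22 other SLAM genes and CD2 or SLAM signalling partners, 4 were higher and 1 was lower in the double mutant than in WT, against 8.57% of all probe sets called, with a median log2 fold change of -0.00028 beside 0.01 over all probe sets. Cd244a encodes 2B4, another receptor for CD48. It had 216 and 337 units on the double-mutant arrays, 126 and 159 units in the OBF-1 single mutant, 165 and 98.9 units in the Aiolos single mutant and 79.3 and 86.1 units in WT. Both double-mutant arrays were above all others, and the Aiolos single-mutant arrays were far apart. Cd244a had a log2 fold change of 1.71 in the double mutant against WT (standard error 0.23, limma adjusted p = 0.000678), which is 3.27-fold. A second, dimmer Cd244a probe set had a log2 fold change of 2.42 in the same comparison (adjusted p = 0.00547), a call lost without WT replicate 1 (0.068) or double-mutant replicate 2 (0.0521). In the single mutants the first probe set did not pass (0.78 on the log2 scale without OBF-1, adjusted p = 0.14, and 0.63 without Aiolos, adjusted p = 0.18). Of the NK and plasmacytoid dendritic cell markers, 5 of 7 were measured and limma called 0, with 2 at an unadjusted p under 0.05 in the double mutant against WT and summed intensities of 305 to 325 units in the double mutant and 294 to 296 units in WT. The part of the granulocyte and monocyte markers in the Cd244a value was not tested.

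Slamf7, also called CRACC, had 383 and 367 units on the double-mutant arrays, 255 and 278 units in the OBF-1 single mutant, 270 and 301 units in the Aiolos single mutant and 240 and 254 units in WT. Against WT, the double-mutant change was 0.60 on the log2 scale (standard error 0.10, adjusted p = 0.00219), and the double mutant lay above all other arrays. Slamf7 is also known from plasma cells. Of 4 plasma cell markers 1 was higher in the double mutant than in WT, against 8.57% of all probe sets called. This was Sdc1 (CD138), with 845 and 749 units on the double-mutant arrays, 748 and 702 units in the OBF-1 single mutant, 457 and 401 units in the Aiolos single mutant and 412 and 398 units in WT (log2 fold change 0.98 in the double mutant against WT, limma adjusted p = 9.64e-05). The summed intensity of the 4 was 1736 to 1829 units in the double mutant, 1555 to 1655 without OBF-1 alone, 1274 to 1428 without Aiolos alone and 1235 to 1260 in WT. Their part in the Slamf7 value was not tested.

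Fyn, a Src family kinase that SAP links to SLAM receptors, had 415 and 371 units on the double-mutant arrays, 316 and 335 units in the OBF-1 single mutant, 216 and 181 units in the Aiolos single mutant and 262 and 244 units in WT. The genotypes did not overlap, and the Aiolos single mutant was lowest. Fyn had a log2 fold change of 0.64 in the double mutant against WT (adjusted p = 0.00327) and of 0.99 in the double mutant against the Aiolos single mutant (adjusted p = 0.000251). Inpp5d, the phosphatase SHIP-1 that binds SLAM receptor tails, was the other gene that rose, with a log2 fold change of 0.54 (adjusted p = 0.00358). Without moderation of the variances the double-mutant calls against WT were lost for Cd244a (adjusted p = 0.136), Slamf7 (0.0667), Fyn (0.106) and Inpp5d (0.0585).

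Pstpip1, an adaptor that binds the CD2 tail, was the gene of this group that fell. It had 107 and 110 units on the double-mutant arrays, 144 and 175 units in the OBF-1 single mutant, 143 and 133 units in the Aiolos single mutant and 230 and 223 units in WT. Every mutant array was below every WT array. Against WT, the change of Pstpip1 was -1.06 on the log2 scale in the double mutant (standard error 0.11, limma adjusted p = 5.85e-05), -0.51 without OBF-1 alone (adjusted p = 0.027) and -0.72 without Aiolos alone (adjusted p = 0.00848). The OBF-1 call was lost without OBF-1 single-mutant replicate 1 (adjusted p = 0.192) or either WT array (0.172 and 0.118), and the Aiolos call without WT replicate 1 (0.0991) or either Aiolos single-mutant array (0.0522 and 0.0518). The interaction value was 0.16 (adjusted p = 0.685). Pstpip1 thus fell in each single mutant, while the log2 fold change of Cd2 without OBF-1 alone was -0.10. Cd2ap, a scaffold that also binds the CD2 tail, had log2 fold changes of -0.04, 0.10 and -0.11 in the double mutant, OBF-1 single mutant and Aiolos single mutant and passed in none. Sh2d1a, which encodes SAP, was at 10.2 to 12.9 units over the 8 arrays, well under the arrays' medians.

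Slamf9 was named after its values were seen, because it moved in opposite directions in the single mutants. It had 288 and 201 units on the double-mutant arrays, 216 and 198 units in the OBF-1 single mutant, 563 and 864 units in the Aiolos single mutant and 412 and 357 units in WT. The arrays without OBF-1 were all below WT, and those of the Aiolos single mutant were above it. The log2 fold change against WT was -0.89 without OBF-1 alone (adjusted p = 0.0373) and 0.86 without Aiolos alone (adjusted p = 0.0481), and the double mutant at -0.67 did not pass (adjusted p = 0.0534). Both single-mutant calls sit next to the threshold. Leaving out WT replicate 1, WT replicate 2, OBF-1 single-mutant replicate 1 or OBF-1 single-mutant replicate 2 ended the OBF-1 call (adjusted p = 0.27, 0.114, 0.119 and 0.208). Leaving out WT replicate 1, WT replicate 2, either OBF-1 single-mutant array or Aiolos single-mutant replicate 2 ended the Aiolos call (adjusted p = 0.178, 0.164, 0.0672 for each and 0.216). The difference between the double mutant and the Aiolos single mutant was larger (log2 fold change -1.54, adjusted p = 0.000766).

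**Figure D4:**
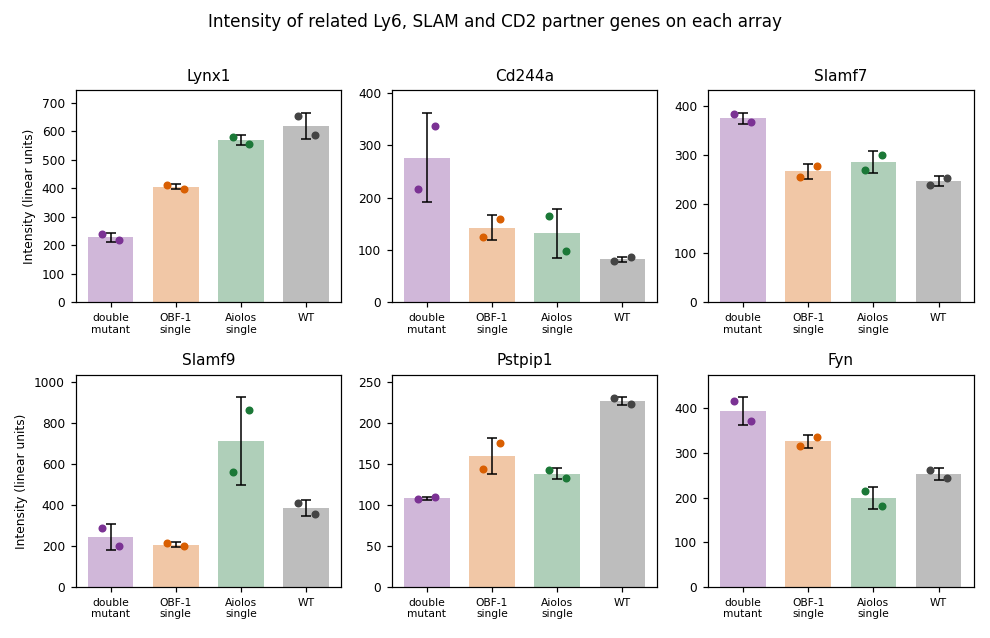
Intensity (linear units) of Lynx1, Cd244a, Slamf7, Slamf9, Pstpip1 and Fyn in the double mutant, OBF-1 single mutant, Aiolos single mutant and WT from left to right. Points are single arrays, bars the mean and error lines the SD (n = 2 each). Lynx1 and Pstpip1 are lowest in the double mutant (218 to 240 and 107 to 110 units), Cd244a and Slamf7 are highest there, and Slamf9 is highest in the Aiolos single mutant (563 and 864 units).

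Likeness to Ly6d and to Cd2 over the 8 arrays was taken among 179 genes, each by its brightest probe set. These genes had a genotype mean of at least 100 units and varied at least 1 log2 unit between genotype means. Most like Ly6d in log2 intensity were Myl4 (Pearson r = 0.997), an Igk probe set (0.995), Egr1 (0.993), Pou2af1 (0.992) and Zfpm1 (0.992). These r values describe 8 arrays that share their genotypes, and genes picked by likeness get no test. Myl4, a myosin light chain gene, had 114 and 90.4 units on the double-mutant arrays, 115 and 113 units in the OBF-1 single mutant, 1265 and 1367 units in the Aiolos single mutant and 1745 and 1886 units in WT. Like Ly6d, it split the arrays by OBF-1. Pou2af1 itself is the deleted gene, and Igk is an immunoglobulin light chain locus.

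Most like Cd2 were Dtx1 (r = 0.987), Slfn2 (0.986), Il21r (0.971), Cdk2ap2 (0.947) and Cav2 (0.942). Dtx1, a regulator of Notch signalling, had 173 and 167 units on the double-mutant arrays, 361 and 400 units in the OBF-1 single mutant, 284 and 252 units in the Aiolos single mutant and 424 and 420 units in WT. Slfn2, a Schlafen gene linked to quiescence of T cells and monocytes, had 263 and 272 units on the double-mutant arrays, 807 and 905 units in the OBF-1 single mutant, 466 and 539 units in the Aiolos single mutant and 859 and 823 units in WT. Both kept the order of Cd2 in their means for the double mutant and the Aiolos single mutant, below the OBF-1 single mutant and WT. Among the members, Cd84 was most like Cd2 (r = 0.818), and Ly6d and Cd2 had an r of 0.336 with each other.

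T cells express CD2, and their markers were looked at beside Cd2. Against WT, 8.57% of all probe sets were called in the double mutant, 2.09% without OBF-1 alone and 1.84% without Aiolos alone. By limma 0 of 8 T cell markers passed in any comparison. Of these markers, 2 had an unadjusted p under 0.05 in the double mutant, 1 without OBF-1 alone and 3 without Aiolos alone, each against WT. Their summed intensity was 371 to 384 units in the double mutant, 345 to 359 in the OBF-1 single mutant, 391 to 396 in the Aiolos single mutant and 330 to 349 in WT. Their part in the Cd2 values was not tested. Of 7 measured markers of immature and mature B cells, 3 were lower and 1 was higher in the double mutant than in WT. Over all probe sets 8.57% were called in that comparison. Ms4a1 (CD20), among the lower ones, had 580 and 650 units on the double-mutant arrays and 2521 and 2379 units in WT. The higher one was Cd22, with 1750 and 1693 units on the double-mutant arrays and 1336 and 1201 units in WT. Without OBF-1 alone 3 of the 7 were lower and 0 higher than in WT, against 2.09% of all probe sets called. Without Aiolos alone limma called 0 of the 7, with 2 at an unadjusted p under 0.05, against 1.84% of all probe sets. The summed intensity of the 7 markers was 7532 to 7595 units in the double mutant, 8136 to 8224 in the OBF-1 single mutant, 9609 to 10288 in the Aiolos single mutant and 10683 to 10721 in WT. Their part in the Ly6d and Cd2 values was not tested.

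Several Ly6 genes respond to interferon, so 25 measured interferon response genes were set beside them. In the double mutant against WT 4 were lower and 0 higher, against 8.57% of all probe sets called in either direction, led by Ifi27l2a with 460 and 489 units on the double-mutant arrays and 1496 and 1428 units in WT (log2 fold change -1.62, adjusted p = 1.79e-06). The median of the 25 was -0.09 on the log2 scale, beside 0.01 over all probe sets. Without OBF-1 alone 2 of the 25 were lower and 0 higher, against 2.09% of all probe sets called. Without Aiolos alone 1 was lower and 1 higher, against 1.84% of all probe sets. The 25 summed to 4189 to 4298 units in the double mutant and 4678 to 4779 in the OBF-1 single mutant. The sum was 5292 to 5564 in the Aiolos single mutant and 5286 to 5713 in WT. In the double mutant against WT the log2 fold change was 0.31 for Ly6c2/Ly6c1 and -3.33 for Ly6d. The part of the interferon genes in these values was not tested.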

How the data were processed

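The authors deposited linear intensity values. The labels name RMA, without a version, as their source, a method of background correction, quantile normalization and probe summary, while the study's methods name other software. Their log2 was taken here. Of 22690 probe sets, 64 controls were left out. Names came from the platform annotation: 20380 probe sets had 1 symbol, 691 several and 1555 none. Instrument files gave the fluidics station and module.

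The log2 values of all 8 arrays entered limma 3.58.1 in R 4.3.3 (4 residual and 7.69 prior degrees of freedom), with 1 mean per genotype and Benjamini-Hochberg adjustment over 22626 probe sets. The fit was tested on simulated data. For a listed gene the brightest probe set was used. Members and lists were chosen with earlier results of these data known. Named were all members, up to 4 called genes of each list, the 5 most like Ly6d and Cd2, Pou2af1 and genes marked as picked later (Slamf9, Slamf6, Cd2ap, Sh2d1a, Il2ra, Ptprc, Cd79a, the genes beside Ly6d and Inpp5d). The number of arrays limits the precision. Nothing in the labels shows that arrays came from separate animals, so p-values measure the spread between arrays.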

Additional observations from a re-analysis of the deposited data

How the results depend on the processing

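Over 10 kinds of alternatives no called result changed direction. Of the 7 member probe sets that were tested, 1 was called in the double mutant against WT (Cd84), with 0 called without moderation of variances and 2 with trend and robust moderation (1 to 1 with single arrays left out). With a filter at 100 units the count was also 1, but another probe set, Ly6c2/Ly6c1 (adjusted p = 0.0476), since Cd84 and Slamf1 did not pass the filter and were not tested. The 1 call in the double mutant against the Aiolos single mutant (Slamf1) became 0 with an offset of 16 before log2, with a filter at 100 units, without moderation and with a gene's probe sets averaged, and 0 to 1 with single arrays left out. The other comparisons kept 0 member calls under every alternative run.

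Over all probe sets, calls without moderation numbered 359 for the double mutant against WT (main 1938), 9 for the OBF-1 single mutant against WT (472), 6 for the Aiolos single mutant against WT (417), 22 for the double mutant against the Aiolos single mutant (667), 26 for the double mutant against loss of OBF-1 alone (596) and 0 for the interaction (42). With single arrays left out they were 988 to 1888, 182 to 478, 55 to 481, 305 to 624, 244 to 498 and 10 to 37 in this order.

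The replicate numbers do not pair the arrays (correlations of -0.09 to 0.10). With a replicate block the calls over all probe sets were 2027 for the double mutant, 491 for loss of OBF-1 alone and 460 for loss of Aiolos alone, each against WT, and the member counts were as in the fit without it.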
